A study of Mus musculus with 10 samples.

Results

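The Hox genes, chosen as every row of the count table whose symbol is Hox followed by a cluster letter a to d and a number, were 28 of 24202 gene symbols. They were measured in 10 MB-49 tumors, 5 from mice given PIIO-1 and 5 from mice given PBS. MB-49 is a mouse bladder cancer cell line, and PIIO-1 is an antibody to GARP, the cell-surface protein encoded by LRRC32 that holds latent TGF-beta. All mice of both groups carried a human LRRC32 knock-in (hLrrc32) and received 100000 MB-49 cells under the skin of the right flank. PIIO-1 mice were given 200 ug of the antibody into the peritoneum on days 6 and 9, and tumors of both groups were collected on day 10 and dissociated to single cells, whose RNA was sequenced in bulk. The libraries thus hold RNA of tumor cells and of host cells, and fewer cells of a type cannot be told apart from less RNA per cell. The labels do not say whether each tumor came from a separate mouse, so the p-values measure the spread between these 10 tumors.

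Hox genes encode transcription factors that bind DNA through a homeodomain and give cells their position along the body axis. In mammals they lie in 4 clusters, and the gene number (the paralog group) follows the order along the chromosome. Low-numbered genes are expressed toward the head and high-numbered genes toward the tail. Adult fibroblasts and many cell lines keep a Hox pattern of the body site they came from. In the lower urinary tract and the rest of the tail end of the trunk, members of groups 9 to 13 are known to act.

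The homeobox, the coding stretch for the homeodomain, was read for all 28 genes from GENCODE M21 transcripts of build GRCm38. It was 180 bases (60 codons) in 1 exon in each gene. The homeoboxes of 5 genes are shown because the levels below turn on them: the genes with the highest level per length in HoxA, HoxB and HoxD (Hoxa10, Hoxb7 and Hoxd8), Hoxb9, which varied most among the members averaging 50 or more normalized counts, and Hoxb13, the gene of the highest paralog group with a measured level. Each runs 5′ to 3′ on the coding strand, and capitals mark codons 48 to 51, in the helix that contacts the major groove of DNA.
Hoxa10 (chr6:52232554-52232733, minus strand): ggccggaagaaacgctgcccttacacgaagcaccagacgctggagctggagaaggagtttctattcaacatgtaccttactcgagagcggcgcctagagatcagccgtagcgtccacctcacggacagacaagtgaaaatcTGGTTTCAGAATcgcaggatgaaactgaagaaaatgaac
Hoxb9 (chr11:96274659-96274838, plus strand): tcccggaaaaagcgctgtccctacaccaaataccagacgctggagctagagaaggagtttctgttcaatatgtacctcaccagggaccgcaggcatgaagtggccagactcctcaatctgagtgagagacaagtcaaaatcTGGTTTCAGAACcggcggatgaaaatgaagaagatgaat
Hoxb7 (chr11:96289385-96289564, plus strand): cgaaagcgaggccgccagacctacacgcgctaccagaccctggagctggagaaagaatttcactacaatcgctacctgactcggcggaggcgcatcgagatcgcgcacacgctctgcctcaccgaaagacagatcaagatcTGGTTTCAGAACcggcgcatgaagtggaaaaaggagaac
Hoxb13 (chr11:96196020-96196199, plus strand): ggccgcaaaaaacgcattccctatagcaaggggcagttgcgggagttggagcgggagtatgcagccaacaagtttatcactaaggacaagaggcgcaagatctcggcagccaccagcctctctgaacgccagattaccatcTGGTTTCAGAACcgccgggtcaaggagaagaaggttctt
Hoxd8 (chr2:74706525-74706704, plus strand): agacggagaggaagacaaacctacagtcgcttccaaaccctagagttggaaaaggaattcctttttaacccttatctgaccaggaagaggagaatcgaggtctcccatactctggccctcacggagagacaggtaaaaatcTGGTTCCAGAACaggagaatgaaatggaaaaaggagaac

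Identity over the 180 bases ranged from 46.7% to 93.9% among the 378 pairs of the 28 homeoboxes, with a median of 63.9%. The highest value belonged to Hoxa3 and Hoxb3. Hoxa9 and Hoxb9 were identical at 81.7% of the bases, Hoxb9 and Hoxd9 at 84.4%, and Hoxb6 and Hoxb7 at 88.9%. The longest run of identical coding bases between any pair was 52. No source used here gives the read length.

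The libraries held 29689555 to 35299028 whole reads in genes for PIIO-1 and 18843192 to 37581521 for PBS, with PBS tumor 4 the shallowest. A single read was worth 0.817 to 1.56 normalized counts, the deposited unit. Of the epithelial markers, Krt8 and Krt18 were high, with means over 10 tumors of 57723 and 32355 normalized counts. Cdh1 averaged 615, Gata3 161, Krt19 108, Krt5 67.4, Epcam 20.9 and Trp63 3.81 in the same unit. The urothelial defining markers Upk2 and Upk3a were near 0 (means of 1.36 and 1.10), while Upk1a averaged 28.5 and Upk1b 10.1. The summed level of the 6 fibroblast markers, none of them under a mean of 10, ran from 1983 to 9883 in PIIO-1 tumors and from 2480 to 7114 in PBS tumors. The 5 leukocyte markers, also all above that mean, summed to 11335 to 23441 in PIIO-1 tumors and 12331 to 18712 in PBS tumors. PIIO-1 tumor 5 stood apart in the 4 red blood cell genes, which summed to 55323 there against at most 22548 in any other tumor. It also had the highest sums of skeletal muscle markers (1033 normalized counts, against at most 332 elsewhere), adipocyte markers (32.7, against at most 14.6) and mast cell markers (347, against at most 214). Des alone made 901 of that skeletal muscle sum, and the listed Acta1 and Ckm had no row. Cfd alone made 30.9 of the adipocyte sum, and the listed Adipoq and Lep had no row. These 2 sums thus rest on single genes.

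The HoxA and HoxB clusters carried nearly all Hox RNA in both groups, and HoxC and HoxD carried little. Of the 28 members 17 reached a mean of 10 normalized counts, and 16 of those 17 lie in HoxA or HoxB. HoxA (chr6:52155590-52260880) had 12848 reads over all tumors from 9 rows, and HoxB (chr11:96194316-96368256) had 9423 reads from 8 rows. HoxD (chr2:74668310-74765142) had 407 reads from 5 rows, and HoxC (chr15:102921103-103036852) had 135 reads from 6 rows. Of the 39 Hox genes in the annotation, the 11 others had no row and are therefore not analysed here. They are Hoxa11, Hoxa13, Hoxb1, Hoxb2, Hoxc5, Hoxc11, Hoxc12, Hoxd1, Hoxd11, Hoxd12 and Hoxd13.

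Per kilobase of exon, HoxB held 51.7% ± 1.02 of all Hox counts in PIIO-1 tumors and 51.8% ± 0.978 in PBS tumors (SD, n = 5 each). HoxA held 45.7% ± 1.32 in PIIO-1 tumors and 45.9% ± 1.41 in PBS tumors. HoxD held 2.00% ± 0.423 in PIIO-1 tumors and 1.57% ± 0.585 in PBS tumors, and HoxC held 0.593% ± 0.240 in PIIO-1 tumors and 0.696% ± 0.230 in PBS tumors. The share of HoxA varied only between 44.1% and 47.6% over the 10 tumors, so the balance of the main clusters moved by less than 4 percentage points. Without the correction for length the order of the main clusters turned. HoxA then held 56.0% in PIIO-1 tumors and 56.5% in PBS tumors, and HoxB held 41.4% in PIIO-1 tumors and 41.2% in PBS tumors. All Hox genes together summed to 72.4 ± 7.81 CPM, relative to the library's reads in genes, in PIIO-1 tumors and 74.7 ± 6.67 CPM in PBS tumors.

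**Figure D1:**
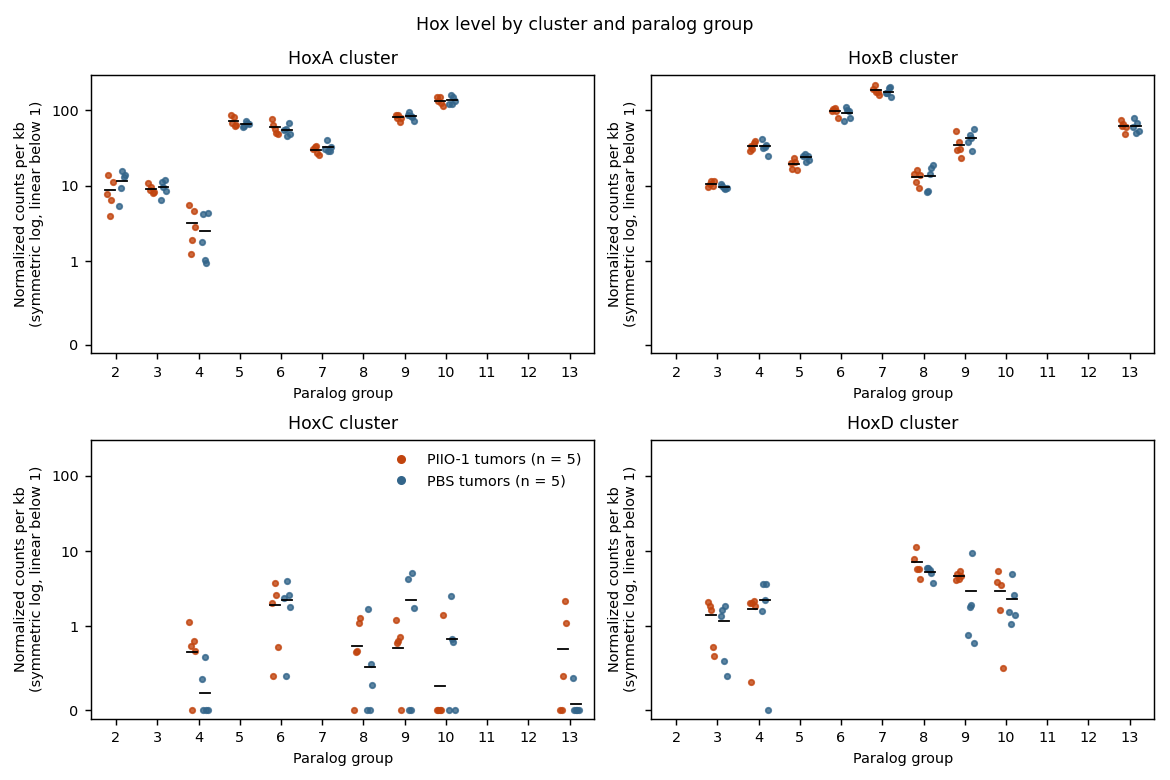
Level of the Hox genes from paralog group 2 on in each tumor by cluster (panels) and paralog group (horizontal axis), in normalized counts per kb of exon on a vertical axis that is logarithmic above 1 and linear below. PIIO-1 tumors (orange) stand left of PBS tumors (blue), dashes are group means, and HoxA and HoxB reach means over all 10 tumors of 137 and 182 per kb (Hoxa10 and Hoxb7) while no such mean in HoxC or HoxD is above 6.18.

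By position, the level per kilobase peaked at different places in the main clusters. In HoxA it was low in groups 2 to 4, with means over 10 tumors of 10.1 normalized counts per kb for Hoxa2, 9.35 for Hoxa3 and 2.86 for Hoxa4. It was higher from group 5 on, with 69.6 for Hoxa5, 57.3 for Hoxa6, 31.2 for Hoxa7 and 82.6 for Hoxa9, and highest at Hoxa10 (137 ± 15.96, SD over 10 tumors). HoxB peaked in its centre, at Hoxb7 (182 ± 21.9) and Hoxb6 (95.1 ± 13.2). On either side it was lower, at 10.2 for Hoxb3, 33.7 for Hoxb4 and 21.6 for Hoxb5, and at 13.2 for Hoxb8 and 39.0 for Hoxb9. Hoxb13, apart from the rest at the tail end of the cluster, was again high at 62.4 ± 10.2. Summed over groups 9 to 13 the level was 219 in HoxA (2 rows), 101 in HoxB (2 rows), 6.501 in HoxD (2 rows) and 2.47 in HoxC (3 rows).

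Ranked by that mean level per kilobase, the order of the members at the top was stable between tumors. It depends on the correction for length, which merged the exons of all annotated transcripts of a gene. The lengths were 5580 bases for Hoxa9, 3270 for Hoxa10 and 1544 for Hoxb7. Which transcripts the tumors used was not tested. Without the correction Hoxa9 (mean over 10 tumors of 461 normalized counts) and Hoxa10 (447) lay above Hoxb7 (281). Per kilobase the order was as follows. Hoxb7 was above Hoxa10 in 10 of 10 tumors, and Hoxa10 above Hoxb6 in 10 of 10. Hoxb6 exceeded Hoxa9 in 8 of 10, Hoxa9 exceeded Hoxa5 in 9, Hoxa5 exceeded Hoxb13 in 8 and Hoxb13 exceeded Hoxa6 in 7. Hoxb9, Hoxb4 and Hoxa7 were not separated, since Hoxb9 was above Hoxb4 in 5 of 10 tumors and Hoxb4 above Hoxa7 in 6. Hoxa7 then exceeded Hoxb5, and Hoxb5 exceeded Hoxb8, in 10 of 10 tumors. Hoxb3, Hoxa2 and Hoxa3 ran together (6 and 5 of 10 tumors). Of the 17 measured members 7 share exon bases with another gene, from 1.52% of Hoxa9 to 52.9% of Hoxb3. The whole count divided by only the exon bases not so shared gave 21.6 per kilobase for Hoxb3, 12.8 for Hoxa3 and 39.2 for Hoxa7. These are upper limits, since the counts may include reads in shared bases. They would place Hoxb3 beside Hoxb5 and Hoxa7 beside Hoxb9. Within paralog group 9 the level was 82.6 for Hoxa9, 39.0 for Hoxb9, 3.85 for Hoxd9 and 1.497 for Hoxc9. Within group 7, Hoxb7 stood at 182 and Hoxa7 at 31.2, and within group 5 the cluster order was the other way, with Hoxa5 at 69.6 and Hoxb5 at 21.6.

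Between the treatments, none of the 17 measured Hox genes changed past the threshold. The test was limma with an intensity trend on log2(normalized count + 1), which understates the change of low genes, over the 16767 genes that averaged 10 or more normalized counts. Of the 17 members 0 passed at a Benjamini-Hochberg adjusted p of 0.05, and of all 16767 genes 0 passed (0%). At an unadjusted p under 0.05 there were 0 members, against 944 of all genes (5.63%). On whole reads recovered from the table, edgeR's quasi-likelihood test also called 0 members and 0 genes (0%), with 975 genes at an unadjusted p under 0.05 (5.81%). DESeq2's Wald test called 0 members and 3 genes (0.0179%), with 1012 at an unadjusted p under 0.05 (6.04%).

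The directions were mixed: 9 of the 17 differences were above 0 and 8 below, against 51.1% above 0 over all genes. The median difference over the 17 members was 0.0072 on the log2 scale, beside 0.0027 over all genes. The median size of the difference regardless of sign was 0.10, against 0.082 over all genes. For each of the 17 members the values of the 2 groups overlapped, and over all genes 143 (0.853%) had groups that did not. The SD of log2 values over the 10 tumors had a median of 0.23 in the members and 0.17 in all genes. The all-gene medians were not matched to the levels of the members. Whether Hox genes vary more than genes of like level was thus not tested.

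**Figure D2:**
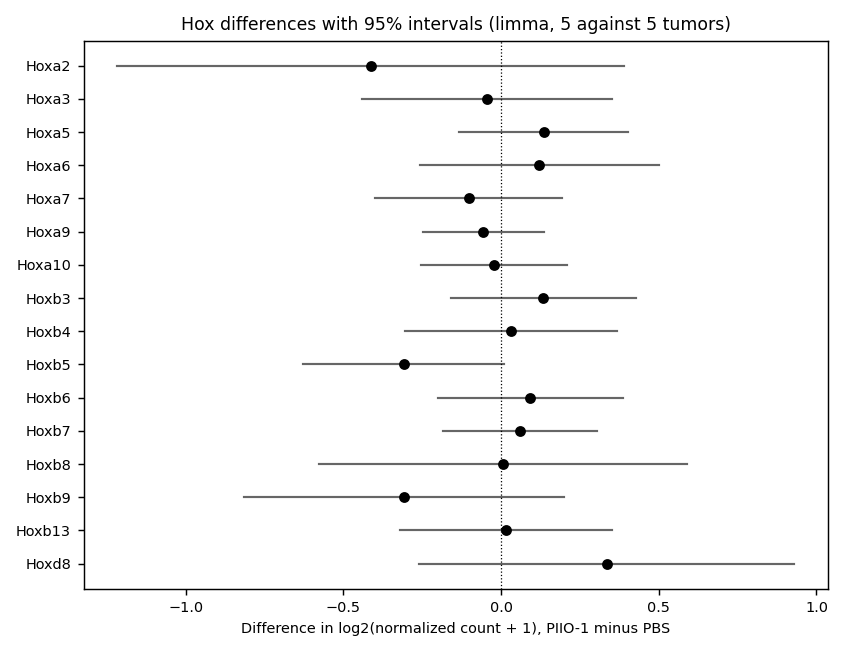
Difference of each measured Hox gene in log2(normalized count + 1), PIIO-1 minus PBS, with its 95% interval from limma (5 against 5 tumors). Of the 17 measured genes 16 are drawn, each interval includes 0, and the differences run from -0.41 (Hoxa2) to 0.34 (Hoxd8).

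The highest HoxA members had similar levels in both groups. Hoxa9 (chr6:52223100-52231089, minus strand), which regulates blood stem cells and is a known driver of leukemia when overexpressed, had 490.4, 446, 485, 391 and 446 normalized counts in PIIO-1 tumors 1 to 5, against 481, 533, 477, 453 and 406 in PBS tumors 1 to 5. Hoxa10 (chr6:52231197-52240854, minus strand), required for uterine and other posterior patterning, had 489, 437, 495, 415 and 378 in PIIO-1 tumors, against 396, 527, 393, 498 and 438 in PBS tumors. PBS tumor 2 was highest for both genes. Hoxa10 averaged 443 ± 49.8 in PIIO-1 tumors and 450.4 ± 60.1 in PBS tumors (SD, n = 5 each), and its difference was -0.022 (SE 0.11, limma adjusted p = 0.982). The 95% interval of the ratio of PIIO-1 over PBS was 0.842 to 1.10 for Hoxa9 and 0.838 to 1.16 for Hoxa10.

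The central HoxA members Hoxa5, Hoxa6 and Hoxa7 pattern the neck and thorax, and Hoxa5 is also required in the lung. Hoxa5 had 165, 129, 154, 119 and 119.8 in PIIO-1 tumors, against 113, 117, 138, 128 and 125 in PBS tumors. PIIO-1 tumors 1 and 3 were the highest of all tumors, and the other PIIO-1 tumors lay among the PBS tumors. Hoxa5 averaged 137 ± 21.04 in PIIO-1 tumors and 124 ± 9.85 in PBS tumors, a difference of 0.13 (SE 0.12, limma adjusted p = 0.880), which was 0.065 without PIIO-1 tumor 1. Hoxa6 had 67.6, 56.8, 50.3, 44.5 and 42.7 in PIIO-1 tumors, against 47.8, 49.7, 40.0, 59.3 and 42.2 in PBS tumors, and PIIO-1 tumor 1 was again highest. Hoxa7 had 89.5, 93.0, 96.5, 78.3 and 74.4 in PIIO-1 tumors, against 87.9, 117, 83.3, 82.7 and 94.7 in PBS tumors, with PBS tumor 2 highest and PIIO-1 tumor 5 lowest.

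The anterior HoxA members Hoxa2 and Hoxa3 pattern the hindbrain and the pharyngeal arches, and they were low here. Hoxa3, needed for the thymus and parathyroid glands, had 64.7, 52.8, 58.3, 48.7 and 49.9 in PIIO-1 tumors, against 39.2, 67.3, 58.8, 71.8 and 50.8 in PBS tumors, and PBS tumors held both extremes. Hoxa2 had 13.9, 24.5, 7.04, 11.6 and 19.97 in PIIO-1 tumors, against 9.55, 16.6, 27.8, 23.4 and 25.0 in PBS tumors, which is a range of 7 to 34 reads. PIIO-1 tumor 3 was the lowest and PBS tumor 3 the highest for Hoxa2. Hoxa2 averaged 15.4 ± 6.88 in PIIO-1 tumors and 20.5 ± 7.36 in PBS tumors, a difference of -0.41 (SE 0.37, limma adjusted p = 0.879). The ratio of PIIO-1 over PBS had a 95% interval of 0.431 to 1.31 for Hoxa2. With each tumor left out in turn the Hoxa2 difference ran from -0.65, without PBS tumor 1, to -0.18, without PIIO-1 tumor 3.

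In HoxB, the top members Hoxb7 and Hoxb6 overlapped widely between the groups. Hoxb7 (chr11:96286623-96290162, plus strand), overexpressed in several human carcinomas, had 301, 339, 274, 273 and 244 in PIIO-1 tumors, against 259.8, 259, 303, 318 and 233 in PBS tumors. It averaged 286 ± 35.6 in PIIO-1 tumors and 275 ± 34.9 in PBS tumors, a difference of 0.060 (SE 0.11, limma adjusted p = 0.951). PIIO-1 tumor 2 was highest and PBS tumor 5 lowest. Hoxb6 had 194, 207, 212, 192 and 156 in PIIO-1 tumors, against 143, 217, 197, 195 and 155 in PBS tumors. PBS tumors held both extremes, and the ratio of PIIO-1 over PBS had a 95% interval of 0.870 to 1.31.

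Hoxb5 (chr11:96303336-96306121, plus strand), which acts in the neural crest cells that form the gut's nerves, had the smallest limma p of the 17 members. Its values were 55.7, 46.0, 64.3, 57.2 and 45.4 in PIIO-1 tumors, against 69.7, 73.1, 57.2, 70.2 and 62.0 in PBS tumors. PIIO-1 tumors 2 and 5 were the lowest of all, PBS tumors 1, 2 and 4 were the highest, and the groups overlapped in between. Hoxb5 averaged 53.7 ± 8.03 in PIIO-1 tumors and 66.5 ± 6.63 in PBS tumors, a difference of -0.31 (SE 0.15, limma adjusted p = 0.837). With each tumor left out in turn the difference stayed between -0.38 and -0.25, and the lowest adjusted p was 0.533. The antisense gene Hoxb5os covers 3.59% of Hoxb5 exon bases and averaged 35.3 ± 10.996 in PIIO-1 tumors and 26.7 ± 12.5 in PBS tumors, a difference of 0.46 (SE 0.34, limma adjusted p = 0.861).

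Hoxb9 (chr11:96271457-96276595, plus strand), which patterns the thorax and ribs, varied more between tumors than any other member averaging 50 or more normalized counts. It had 138, 76.3, 98.5, 78.3 and 60.8 in PIIO-1 tumors, against 97.4, 123, 111, 74.9 and 146 in PBS tumors. PIIO-1 tumor 1 and PBS tumor 5 were high, and PIIO-1 tumor 5 and PBS tumor 4 were low. Hoxb9 averaged 90.4 ± 29.9 in PIIO-1 tumors and 111 ± 26.8 in PBS tumors, a difference of -0.31 (SE 0.23, limma adjusted p = 0.862). Without PIIO-1 tumor 1 it was -0.47, with a limma adjusted p of 0.498, the lowest of any member in the settings run. Leaving out PIIO-1 tumor 5 gave -0.18, and leaving out PBS tumor 5 gave -0.20.

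Hoxb13 (chr11:96194316-96197447, plus strand), known from the tail bud, hindgut and prostate, was clearly present in every tumor. It had 163, 137, 148, 109 and 133 in PIIO-1 tumors, against 134, 178, 109, 149.8 and 116 in PBS tumors. The highest tumor was PBS tumor 2 and the lowest were PIIO-1 tumor 4 and PBS tumor 3, so both groups spanned nearly the same range. Hoxb13 averaged 138 ± 19.9 in PIIO-1 tumors and 137 ± 27.4 in PBS tumors, and the ratio of PIIO-1 over PBS had a 95% interval of 0.802 to 1.28.

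Hoxb3, Hoxb4 and Hoxb8 completed the cluster. Hoxb3, a hindbrain gene, had 40.8, 45.0, 49.3, 42.3 and 49.0 in PIIO-1 tumors, against 44.9, 41.9, 40.0, 39.0 and 39.6 in PBS tumors, a difference of 0.13 (SE 0.13, limma adjusted p = 0.890). Its coefficient of variation over the 10 tumors was the lowest of the 17 members. Of its exon bases, 52.9% are shared with the antisense gene Hoxb3os, whose own mean was 2.46 normalized counts. With the strand setting unknown, reads in the shared bases cannot be assigned to 1 of the pair here. Hoxb4, known for expanding blood stem cells, had 74.6, 87.1, 78.4, 94.2 and 102 in PIIO-1 tumors, against 109, 81.9, 84.9, 88.9 and 64.6 in PBS tumors, and PBS tumors held both extremes. Hoxb8, used to immortalize myeloid progenitors, had 37.8, 29.4, 42.2, 24.3 and 37.2 in PIIO-1 tumors, against 22.0, 22.4, 37.6, 45.3 and 49.1 in PBS tumors. PBS tumors 1 and 2 were the lowest for Hoxb8 and PBS tumors 4 and 5 the highest, with the PIIO-1 tumors between them.

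Hoxd8 (chr2:74704615-74707933, plus strand), a trunk gene, was the only member of HoxD or HoxC with a mean of at least 10. It had 21.9, 31.3, 16.1, 15.9 and 11.8 in PIIO-1 tumors, against 16.2, 16.6, 15.5, 14.04 and 10.3 in PBS tumors. PIIO-1 tumors 1 and 2 were the highest of all tumors, and the other PIIO-1 tumors lay within the PBS range. Hoxd8 averaged 19.4 ± 7.57 in PIIO-1 tumors and 14.5 ± 2.55 in PBS tumors, a difference of 0.34 (SE 0.27, limma adjusted p = 0.866), which was 0.15 without PIIO-1 tumor 2.

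**Figure D3:**
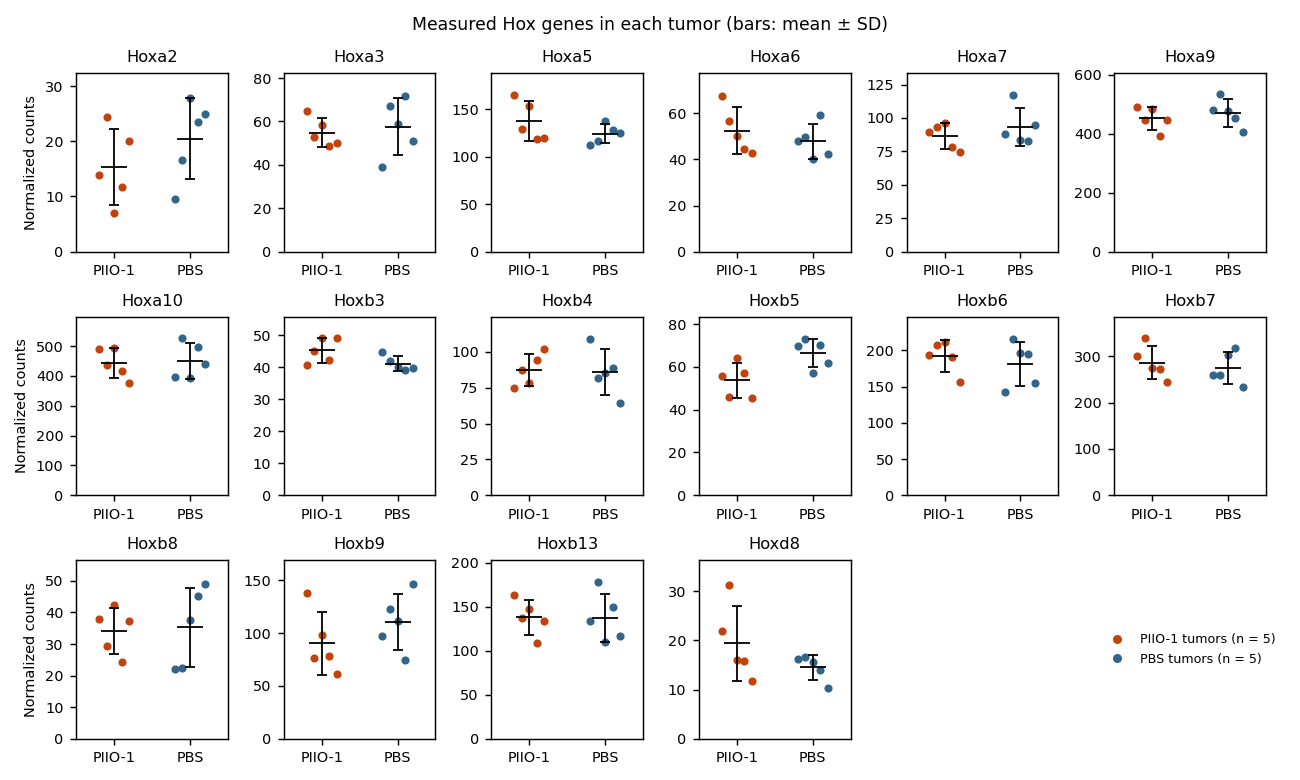
Normalized counts of 16 of the 17 measured Hox genes in each tumor, 1 panel per gene with its own vertical axis from 0. Points are tumors, PIIO-1 left (orange) and PBS right (blue), bars are mean ± SD (n = 5 each), and in every panel the groups overlap.

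The 11 low members were seen in few reads. Over the 10 tumors Hoxd9 had 77 reads, Hoxd4 56, Hoxd3 53, Hoxc6 51, Hoxd10 49 and Hoxa4 47. Hoxc9 had 33, Hoxc8 18, Hoxc4 12, Hoxc10 11 and Hoxc13 10, and 6 of the 11 had no read in at least 1 tumor. A count of 0 allows up to 3 reads, worth 2.45 to 4.68 normalized counts depending on the tumor, by counting error only. Hoxd9, a gene of the limbs and lower trunk, had 9, 11, 9, 11 and 11 reads in PIIO-1 tumors, against 2, 4, 5, 13 and 2 in PBS tumors. All 5 PIIO-1 tumors had 9 or 11 reads, and PBS tumors 1, 2, 3 and 5 had at most 5, but PBS tumor 4 had the most of all. Hoxc13, known from hair follicles and nails, had 0, 0, 1, 5 and 3 reads in PIIO-1 tumors, against 1, 0, 0, 0 and 0 in PBS tumors. Hoxc6, the HoxC member with the highest level per kilobase (2.09), had 5, 1, 9, 6 and 2 reads in PIIO-1 tumors, against 6, 1, 12, 4 and 5 in PBS tumors. No member of HoxC was thus seen above 12 reads in any library. With no filter on low values, 0 of the 28 Hox genes passed in limma. Reads of Hoxd3 and Hoxd4 are uncertain, since 62.8% and 52.3% of their exon bases are shared with other genes, including each other.

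**Figure D4:**
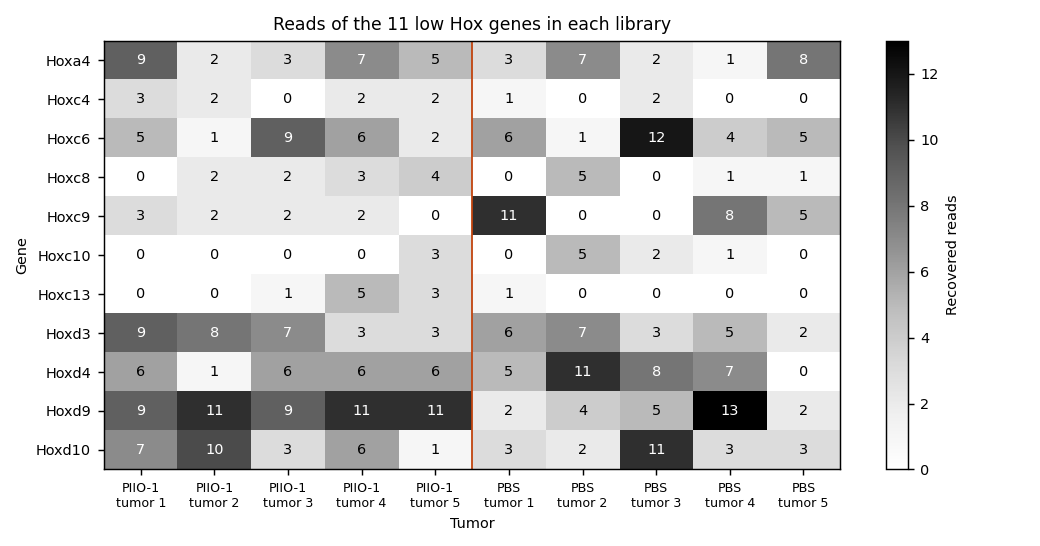
Reads of the 11 Hox genes with a mean under 10 normalized counts in each library, PIIO-1 tumors left of the line and PBS tumors right of it. Darker cells hold more reads, the highest being 13 (Hoxd9 in PBS tumor 4), and many cells of the HoxC rows are 0.

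Single tumors lay above the mean for some members and below it for others. PIIO-1 tumor 5 was below the mean of the 10 tumors for Hoxa10 (by -0.23 on the log2 scale), Hoxb9 (-0.66), Hoxb5 (-0.38) and Hoxd8 (-0.43), but above it for Hoxa2 (0.26), Hoxb4 (0.24), Hoxb3 (0.18) and Hoxb8 (0.15). PBS tumor 2 was above the mean for most members drawn, among them Hoxa7 (0.39), Hoxb13 (0.38), Hoxb9 (0.34), Hoxa10 (0.25) and Hoxa9 (0.21). It was below the mean for Hoxb8 (-0.56), Hoxa5 (-0.15), Hoxb7 (-0.10), Hoxb4 (-0.063) and Hoxb3 (-0.037). PIIO-1 tumor 5 and PIIO-1 tumor 4 had the highest summed leukocyte markers (23441 and 23122), PBS tumor 2 had 12331 and PIIO-1 tumor 1 the lowest sum, 11335.

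**Figure D5:**
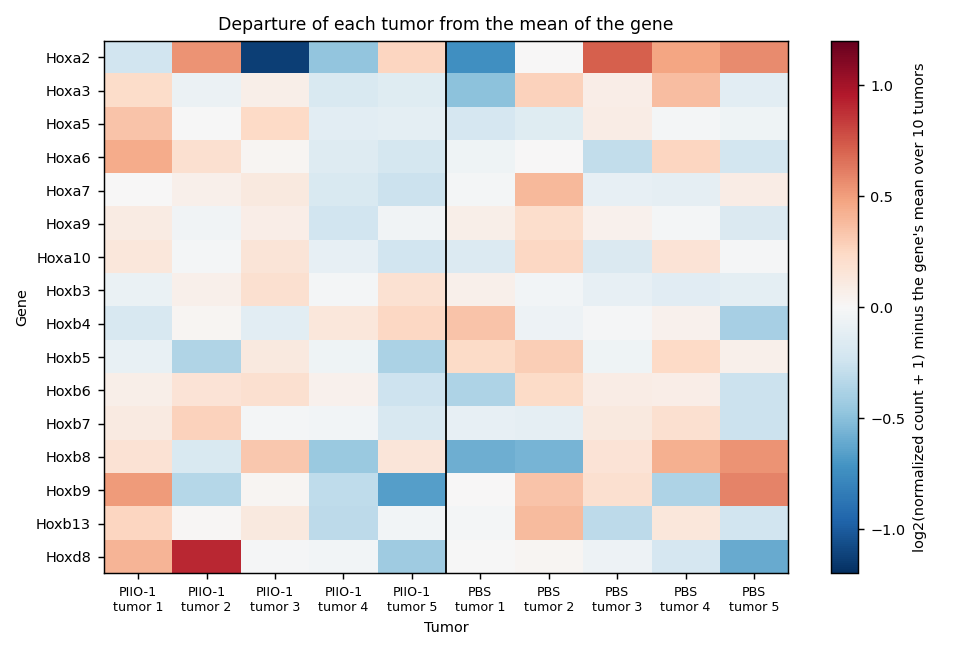
Departure of each tumor from the mean of the gene over 10 tumors, in log2(normalized count + 1), for 16 of the 17 measured Hox genes. Red is above the mean and blue below, PIIO-1 tumors are left of the line and PBS tumors right of it, and the deepest blue is Hoxa2 in PIIO-1 tumor 3 (-1.13).

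The relation of each of the 17 members to the level of Ptprc, which encodes the leukocyte surface protein CD45, and to the mean log2 level of the fibroblast markers gave 34 relations over the 10 tumors, tested by two-sided permutation. None of the 34 passed after Benjamini-Hochberg adjustment, and the lowest adjusted p was 0.167. Against Ptprc, 13 members had a negative r and 4 a positive one, and 7 had an unadjusted p under 0.05 for Pearson's r. The relations were run for Hox members only. Whether these counts differ from the share of all genes related to Ptprc was thus not tested. Hoxb9 had r = -0.765 (p = 0.0116, adjusted p = 0.167) and rho = -0.758 (p = 0.0154, adjusted p = 0.177), in the permutation test. Hoxa10 had r = -0.727 (p = 0.0198, adjusted p = 0.167) and rho = -0.661 (p = 0.0441, adjusted p = 0.250), and Hoxb4 went the other way with r = 0.665 (p = 0.0347, adjusted p = 0.167) and rho = 0.818 (p = 0.00544, adjusted p = 0.177), both by permutation. Without the 2 tumors farthest from the median of Ptprc (PIIO-1 tumors 1 and 5), r was -0.574 for Hoxb9, -0.621 for Hoxa10 and 0.534 for Hoxb4. After centring on the group means r was -0.776 for Hoxb9, -0.726 for Hoxa10 and 0.662 for Hoxb4 over the 10 tumors. No value is given within the groups of 5 tumors. Against the fibroblast level only Hoxa6 had an unadjusted p under 0.05, with r = 0.660 (p = 0.0356, adjusted p = 0.167) and rho = 0.309 (p = 0.388, adjusted p = 0.628) by permutation, and this rests on PIIO-1 tumor 1 and PBS tumor 4, since r was -0.253 without them. Whether cell content has a part in the Hox levels was not tested beyond these relations.

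Genes that act with Hox proteins did not pass the test either. Of 10 listed cofactors, mostly the TALE homeodomain partners that bind DNA beside Hox proteins, 9 had a mean of at least 10, 0 were called, and 5 differences were above 0 and 4 below. Pbx2 averaged 1475 ± 62.3 in PIIO-1 tumors and 1396 ± 91.4 in PBS tumors, a difference of 0.080 (SE 0.055, limma adjusted p = 0.853).

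Of 23 listed chromatin and upstream regulators of Hox clusters, 19 were measured and 0 were called, with 13 differences above 0, 6 below and 4 at an unadjusted p under 0.05, against 5.63% of all genes. Cbx8, a Polycomb protein that reads a repressive histone mark, averaged 370.3 ± 49.2 in PIIO-1 tumors and 274 ± 47.1 in PBS tumors, a difference of 0.44 (SE 0.13, limma adjusted p = 0.837). Kdm6b, a demethylase that removes that mark, averaged 8223 ± 1800.3 in PIIO-1 tumors and 6403 ± 649 in PBS tumors, a difference of 0.34 (SE 0.13, limma adjusted p = 0.837). Of 29 listed other positional transcription factors 8 were measured and 0 called, and Twist2, a mesenchymal factor, had a difference of 0.22 (SE 0.13). Tbx4, a hindlimb and lung mesenchyme gene, averaged 188 ± 32.1 in PIIO-1 tumors and 198 ± 26.1 in PBS tumors.

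Around and within the clusters, 5 of the 43 annotated noncoding genes were measured and 0 called. Gm27605 and Gm27898 are short RNAs annotated beside Hoxb13 on the opposite strand. Gm27605 averaged 118 ± 24.9 in PIIO-1 tumors and 130.2 ± 18.1 in PBS tumors. Gm27898 averaged 31.8 ± 8.80 in PIIO-1 tumors and 42.1 ± 6.51 in PBS tumors, a difference of -0.43 (SE 0.22, limma adjusted p = 0.837). The flanking genes were the nearest protein-coding gene with a row on each side of each cluster, so nearer genes without a row are passed over. Of these 8 genes, 7 were measured and 0 called. Ttll6, a tubulin-modifying enzyme gene 28865 bases from the HoxB cluster on the Hoxb13 side, ran from 43.6 to 68.5 normalized counts in PIIO-1 tumors and from 70.2 to 77.4 in PBS tumors. These groups did not overlap, as for 0.853% of all genes, and the difference was -0.45 (SE 0.15, limma adjusted p = 0.837). Calcoco1, 198925 bases from HoxC, had a difference of -0.094 (SE 0.073). Skap2, 143041 bases from HoxA, averaged 2844 ± 353 in PIIO-1 tumors and 2628 ± 209 in PBS tumors. Evx1, the homeobox gene on the other side of HoxA, averaged 1.92 ± 1.69 in PIIO-1 tumors and 3.19 ± 4.64 in PBS tumors.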

How the data were processed

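Bulk RNA of 5 PIIO-1 and 5 PBS tumors was analysed. The submitters' processing notes name HISAT2, featureCounts, DESeq2 and build GRCm38. No source used here gives versions, annotation or strand setting. A gene and an antisense or overlapping partner therefore cannot be told apart in the exon bases they share. The table deposited by the authors holds normalized counts (a signal, without negative values), with 1 column per tumor. Dividing each column by its smallest step recovered whole reads for 100% of values within 0.001 read, and edgeR 4.0.16 and DESeq2 1.42.0 were run on those reads as alternatives.

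The main test was limma 3.58.1 (R 4.3.3) with an intensity trend on log2(value + 1), two-sided, Benjamini-Hochberg over 16767 genes averaging 10 or more. Per-kilobase levels used GENCODE M21 exon lengths, with the exons of all annotated transcripts of a gene merged. Of the symbols, 23960 of 24202 (99.0%) matched 1 gene. Correlations used 100000 permutations (scipy 1.17.1). Other settings were pseudocounts of 0.5 and 5, no filter, a minimum mean of 50, TMM and upper-quartile scaling, no trend, array weights, a replicate block, a Ptprc covariate, each tumor left out, and PIIO-1 tumor 5 left out with PBS tumor 4. The limma step was tested on simulated data. Members, lists and tests were chosen with earlier results of these data known. Members above the filter are given by tumor, with tests for the 3 smallest p in each direction and the highest member of each cluster, and up to 2 genes of smallest p per other list, apart from some genes and sequences, which are not reported here; any further gene named was picked with its values in view.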

Additional observations from a re-analysis of the deposited data

Results flagged for a closer look

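Among 56 groups of 5 tumors examined (28 Hox genes in each treatment), 4 had 1 tumor far from the others. The measure was the gap to the next tumor over the range of the group, 0.831 to 1 in these 4. All 4 are low genes with few reads, for which the nominal chance count of 2.8 is no guide. In Hoxc13 1 read alone set the tumor apart, but in Hoxd9, Hoxd4 and Hoxc10 the gap was larger than 1 read. Hoxd9 had 20.3 normalized counts (13 reads) in PBS tumor 4, and the next PBS tumor had 4.08 (5 reads). Hoxd4 had 0.979 (1 read) in PIIO-1 tumor 2, and the next PIIO-1 tumor had 5.45 (6 reads). Hoxc10 had 2.72 (3 reads) in PIIO-1 tumor 5 and 0 in the other PIIO-1 tumors. Hoxc13 had 0.955 (1 read) in PBS tumor 1 and 0 in the other PBS tumors. PBS tumor 4 was also the shallowest library, with 18843192 reads.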

How the results depend on the processing

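The count of Hox genes called was 0 in each alternative run, and the count over all genes was 0 except under DESeq2, which called 3. Of 386 recomputed member differences 358 kept their direction, 28 turned and 0 passed (lowest adjusted p 0.498, Hoxb9 without PIIO-1 tumor 1), and 11 of the 17 members never turned. Those that turned lie near 0. Hoxb8 was -0.0022 with upper-quartile scaling, -0.019 with array weights, -0.040 in edgeR and -0.034 in DESeq2. Hoxa10 was 0.031 with array weights, 0.072 without PIIO-1 tumor 5 and PBS tumor 4, and 0.013 with Ptprc as a covariate. Under the last 2 settings Hoxa3 was 0.073 and 0.0033, and Hoxb4 -0.0072 and -0.0086. The cause was not tested. With each tumor left out in turn, differences ran from -0.069 to 0.037 for Hoxa10, -0.17 to 0.042 for Hoxa3, -0.059 to 0.11 for Hoxb13, -0.064 to 0.12 for Hoxb4, -0.0028 to 0.11 for Hoxb7 and -0.14 to 0.14 for Hoxb8, and the median Hox difference from -0.064 to 0.050. Correlations of the deviations of same-numbered tumors ran from -0.21 to 0.095. They gave no sign that the numbers pair the samples, but cannot show that they do not. The fit with a replicate block called 0 Hox genes and 0 genes. Relations to Ptprc and the fibroblast level passed in 0 of 34 cases also after centring on group means and with a pseudocount of 5, both chosen after seeing the data.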
